A study of Drosophila melanogaster with 2 samples.

Results

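The dpr and DIP genes of Drosophila melanogaster encode 2 families of cell surface proteins with immunoglobulin domains. The members were taken as the protein-coding genes of the Ensembl annotation whose symbol is dpr followed by digits or begins with DIP-, and these were 32 of the 13945 protein-coding genes, 21 dpr genes and 11 DIP genes. The rule goes by gene symbol. Dpr proteins on 1 neuron bind DIP proteins on another cell, and the pairing of particular Dpr and DIP proteins is known for its part in matching synaptic partners in the fly visual system, mushroom body and neuromuscular junction. Many of the genes are expressed in particular subsets of neurons, and much of the wiring that these proteins take part in is laid down during pupal life. Among the known partners, DIP-alpha binds dpr6 and dpr10, DIP-gamma binds dpr11, dpr15, dpr16 and dpr17, and DIP-delta binds dpr12.

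The series holds 2 sequencing libraries of chromatin from whole pupae aged 48 h, with males and females pooled, and the labels number them as biological replicates of 1 group. The flies are a transgenic line that stably expresses CG8301 with GFP fused to its C terminus, and both libraries come from this 1 line; the labels used here do not say what drives the fusion. Whole pupae mix all tissues, so a region present only in a small set of neurons is diluted by every other cell. The labels conflict, since CG8301 stands in the antibody field of a transcription factor ChIP-seq assay while the description of both libraries speaks of an input control, so the regions below are regions of these libraries and not necessarily sites bound by the fused protein.

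Each list gives genomic regions with a summit, the position of the highest signal, and the authors' signal value, whose scale is not stated and which was used only for ranks within a list. The list from the pooled replicates holds 30000 regions. The IDR list, of regions that passed the authors' irreproducible discovery rate threshold, was identical to the strongest 26.7% of the pooled list, and 21995 pooled regions lay outside it. The 2 replicate lists hold 30000 regions each, peaks and background together, and were used through as many of their strongest regions as the IDR list holds, called the top regions here, unless the whole list is named. A gene window runs from 2000 bp upstream of the outermost annotated start to the gene end. A summit is a promoter summit when it lies within 500 bp of an annotated start of the same gene. Sequencing depth is unknown, and so is the lowest signal at which a region could have been listed. The replicates are few, and neighbouring summits are not independent, which makes the p-values below too small.

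The dpr and DIP genes held almost no regions. Their windows contained 7 IDR summits, where 98.4 were expected from their length at the genome's density of 0.0599 summits per kb. The ratio of observed to expected summits was 0.0711 for the 32 members, against 1.14 for the other protein-coding genes and 1.18 for the 2325 genes with windows of at least 10 kb. Replicate 1 listed 7 summits in member windows among its top regions (ratio 0.0711), and replicate 2 listed 10 (ratio 0.102). The 21 dpr genes held 4 IDR summits, against 55.8 expected, and the 11 DIP genes held 3, against 42.6 expected, so the ratios of both families were close to each other at 0.0716 and 0.0704. The summed density was 0.00426 summits per kb in member windows, 0.0676 over all protein-coding genes and 0.0709 over genes with long windows.

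Length matters for reading these counts, since members are long genes. Member windows had a median of 34.5 kb and ranged from 5.74 kb in dpr19 to 381 kb in DIP-lambda, whereas the median was 4.17 kb over all protein-coding genes. At least 1 IDR summit fell in 6 of the 32 member windows (18.8%), against a background of 27.6% of all protein-coding genes. The count was 5 (15.6%) in replicate 1, against 28.5%, and 9 (28.1%) in replicate 2, against 27.8%. Among windows of at least 10 kb the contrast was wider, with 3 of 25 members (12%) against 60% of such genes. In the replicates, 2 of these 25 members (8%) held a summit in replicate 1, against 59.5%, and 6 of 25 (24%) held one in replicate 2, against 62.1%. The 7 members with shorter windows included 3 with an IDR summit, dpr14, dpr19 and dpr20. Each held 1 where 0.394, 0.344 and 0.391 were expected. With under 1 expected, any summit exceeds the expectation, so a single short window cannot show whether the shortfall extends to it. The rest, dpr5, dpr7, dpr18 and DIP-iota, held 0 where 0.393 to 0.513 were expected. For comparison, 3851 of the 13945 protein-coding genes held a summit, and 1395 of these were among the 2325 with windows of at least 10 kb. Median density was 0 for the members and 0 for all genes, and 0.0509 summits per kb for genes with long windows.

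**Figure D1:**
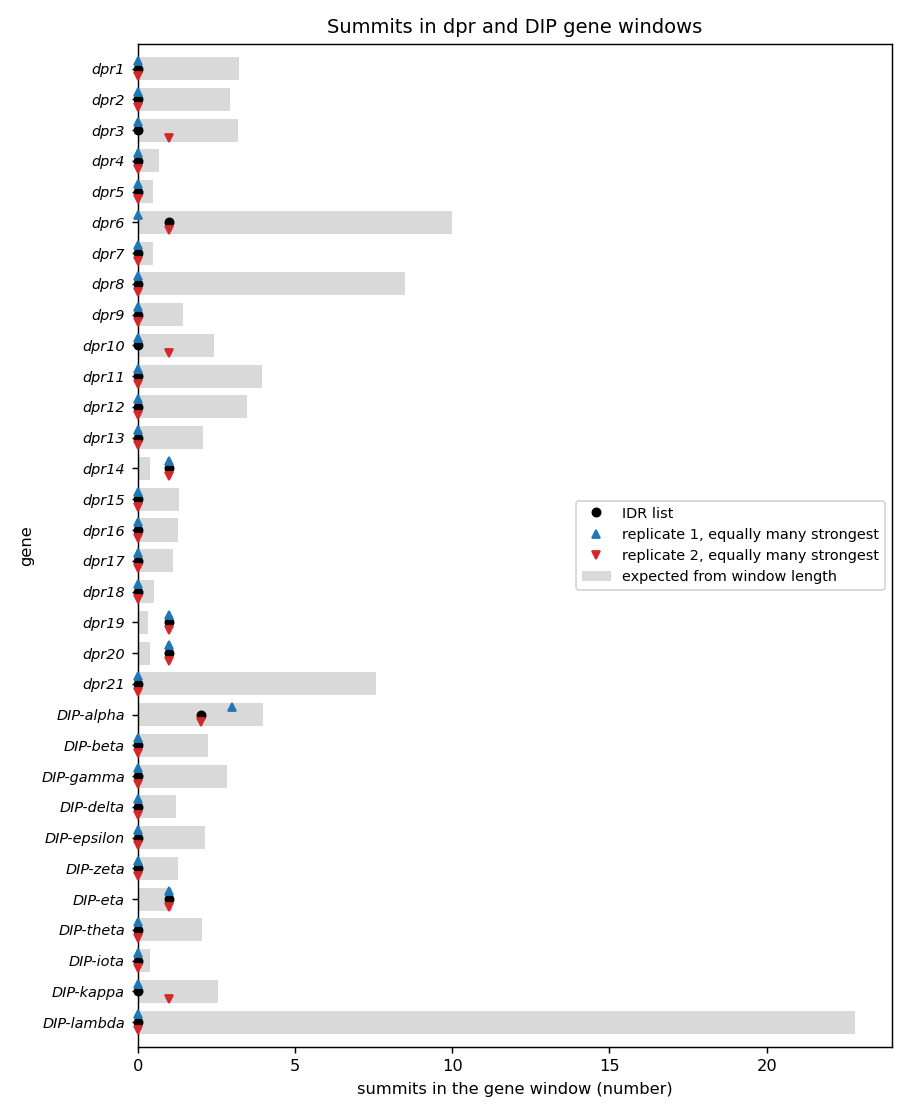
Number of summits in the window of each of the 32 members (x axis) in the IDR list (circles) and in the top regions of replicate 1 (upward triangles) and replicate 2 (downward triangles), equally many as in the IDR list, with grey bars for the number expected from window length. DIP-lambda has 0 in all 3 lists where 22.8 were expected, and the points exceed the bar in the IDR list only in dpr14, dpr19 and dpr20, with 1 summit each.

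The 7 IDR summits lay in 6 genes, and their sequences are given because they are the whole IDR signal of the families. At promoters, dpr14 had a region at chrX:7908565-7908879 with the summit at −427 bp from its start, dpr19 one at chr2L:10375827-10376030 with the summit at −232 bp, and DIP-eta one at chr2L:5618075-5618245 with the summit at −235 bp, the minus sign meaning upstream. The dpr20 region at chr3L:857709-858003 had its summit at −601 bp, outside the promoter limit. Introns held the other 3, of which 2 were in DIP-alpha, at chrX:3546128-3546520 and chrX:3555540-3555777, and 1 was in dpr6, at chr3L:10110430-10110694. The summit and 50 bp on each side of it, for the promoters, for the region upstream of dpr20 and for the stronger DIP-alpha region, follow, 5′ to 3′ on the strand of the gene, from the RefSeq assembly of the release that dm6 denotes; capitals mark runs of 5 or more A or of 5 or more T, a feature chosen after the sequences had been seen.
dpr14, chrX:7908663-7908763, minus strand: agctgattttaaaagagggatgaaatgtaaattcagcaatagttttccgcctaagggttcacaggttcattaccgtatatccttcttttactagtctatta
dpr19, chr2L:10375886-10375986, plus strand: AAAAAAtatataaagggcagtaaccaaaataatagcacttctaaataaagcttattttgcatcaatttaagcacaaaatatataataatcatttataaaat
DIP-eta, chr2L:5618131-5618231, minus strand: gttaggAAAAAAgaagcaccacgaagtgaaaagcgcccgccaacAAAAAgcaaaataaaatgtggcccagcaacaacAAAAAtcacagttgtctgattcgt
dpr20, chr3L:857799-857899, minus strand: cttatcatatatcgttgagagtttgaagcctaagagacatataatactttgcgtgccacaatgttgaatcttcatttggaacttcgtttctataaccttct
DIP-alpha, chrX:3546282-3546382, minus strand: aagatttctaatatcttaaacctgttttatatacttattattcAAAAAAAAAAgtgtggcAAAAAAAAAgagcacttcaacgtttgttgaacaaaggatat

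These windows were rich in A and T. Their GC content had a median of 24.8% over the 7 member summits, with a range of 19.8% at dpr19 to 41.6% at DIP-eta, against a median of 30.7% and quartiles of 25.7% and 35.6% over all IDR summits. A run of 5 or more A or T stood in 5 of the 7 member windows, against 59.4% of all IDR summits and 43.4% of the windows 500 bp to each side of them. The longest such run was 10 bases, in the DIP-alpha window printed above. Member gene windows as a whole had a median GC content of 41.6%, against 42.2% for the genome. In the genes with an IDR summit the whole window ranged from 40.9% in dpr6 to 43.4% in dpr20, so the low GC did not extend over whole genes. The GC content just beside the member summits was not measured.

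Short motifs of fly promoter and enhancer factors were searched on both strands of these windows around all 7 member summits. GAGAG, the core recognised by GAGA factor, was in 1 of the 7 member windows (14.3%), at dpr20, against 9.33% of all IDR summits. CANNTG, the E-box of bHLH factors, was in 2 of 7 (28.6%, exact 95% interval 3.67 to 71), against 32.6%. CACGTG, a case of CANNTG read by Myc and clock factors, was in 0 of 7. The other motifs searched were also in 0 of 7, namely TGANTCA of AP-1, ATCGATA of DREF, AGGTCA as a nuclear receptor site, CAGGTAG of Zelda, GGTCACA of M1BP and CACACA as a repeat. With 7 windows a count of 0 allows a share of up to 41% by the exact 95% interval, and the motifs at 0 stood in between 0.312% of all IDR summits, for that of Zelda, and 6.63%, for the repeat, so no difference was detectable.

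DIP-alpha, the partner of dpr6 and dpr10 in motor neurons and in the optic lobe, held the strongest region of the families. Its summit, 25317 bp inside the gene, had signal 1472 and rank 324 in the IDR list, rank 306 in replicate 1 and rank 357 in replicate 2. The replicate summits lay 0 and 2 bp from the IDR summit, so both libraries placed it at the same point. The summit also lies 222 bp from the start of a noncoding RNA gene, lncRNA:CR34335, and the data do not separate the 2 genes. The second DIP-alpha region, 15995 bp inside the gene, was weaker, with rank 5519 in the IDR list, 5603 in replicate 1 and 5941 in replicate 2.

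Among the regions near a start, dpr20 ranked highest, with signal 637 and IDR rank 1516, rank 2660 in replicate 1 and rank 1202 in replicate 2. The dpr14 promoter region had signal 603 and IDR rank 1638, with ranks 1555 and 1734 in replicates 1 and 2. At dpr19 the signal was 265 and the IDR rank 4520, with ranks 5385 and 4038. DIP-eta had the weakest of the 7 regions, with signal 194, IDR rank 6106 and ranks 5822 and 7058. The dpr14 summit is 218 bp from the start of spidey, which encodes a steroid dehydrogenase family protein, and the dpr19 summit is 179 bp from the start of CG33303, so each of these promoter regions lies near the starts of a pair of genes. Without summits near a start of another gene, a rule added after the data had been seen, 4 summits and 1 member with a promoter summit, DIP-eta, remain.

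The intronic region of dpr6 was the least reproducible of the 7. Replicate 2 held it at rank 4214, the IDR list held it at rank 5360 with signal 222, and no region of the whole replicate 1 list overlapped it. Its summit lies 135912 bp inside the gene. The other 6 regions stood among the top regions of both replicates (85.7%, exact 95% interval 42.1 to 99.6, counting error of regions only), against 77.8% of all IDR regions.

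In strength the member regions were spread widely, with a median near the middle of the list. Their median signal was 265, against 295 over the IDR list, and their median rank percentile was 43.5, where 100 is the strongest. The percentiles of the 7 ranged from 23.7 to 96, and 3 of 7 were above percentile 75. The 4 dpr summits had a median percentile of 61.5 and the 3 DIP summits one of 31.1, numbers too few to order the families. A few regions outside the IDR list were among the top regions of 1 replicate. Replicate 2 had a region of dpr3 at rank 5425, the dpr10 promoter at rank 7112 with its summit at −64 bp, and a DIP-kappa intron at rank 6764, and the whole replicate 1 list held no region at these places. Replicate 1 had a further DIP-alpha intron region at rank 6391, which stood at rank 10204 in the whole replicate 2 list.

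**Figure D2:**
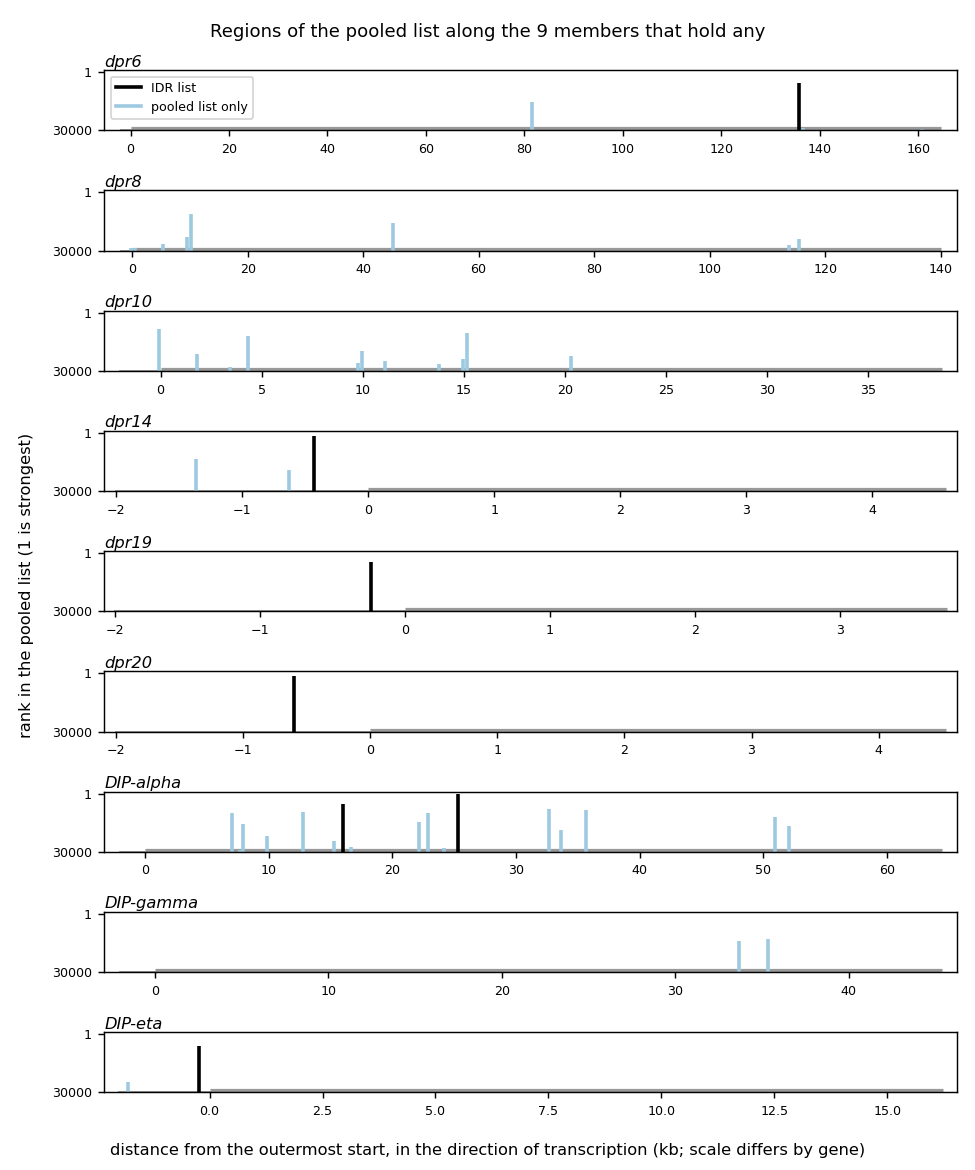
Regions of the pooled list along the 9 members that hold any, at their distance from the outermost start in the direction of transcription (x axis, kb, scale differs by gene; the grey bar is the gene), with line height showing the rank among 30000 regions (1 is strongest, at the top). Black lines are regions of the IDR list and blue lines are in the pooled list only; DIP-alpha has 17 lines and dpr10 has 12, none of those in dpr10 being black.

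The number of regions per gene was tested for every protein-coding gene by a 2-sided exact binomial test against window length, adjusted by the Benjamini-Hochberg method over the 13945 genes, with a call at adjusted p under 0.05. No member was called denser than the genome in the IDR list or in either replicate, where 0.674% of all genes were called denser in the IDR list, 0.796% in replicate 1 and 0.681% in replicate 2. DIP-lambda, on arm 2R, was called sparser, with 0 summits in each of the IDR, replicate 1 and replicate 2 lists where 22.8 were expected (exact binomial test, adjusted p = 4.66e-07 in the IDR list). It was 1 of 10 genes called sparser in the IDR list, a background of 0.0717% of all genes and 0.43% of genes with long windows. An empty window passes this test in the IDR list only at 145 kb or more, a length that 27 genes reach, of which 2 are members. The test could therefore not call most members sparser whatever their density. At an unadjusted p under 0.05, 5 members had fewer summits than expected, namely dpr6, dpr8, dpr11, dpr21 and DIP-lambda. The share was 0.516% over all genes and was not computed over genes with long windows. An empty window must be long to reach this level. By the exact binomial test the 66.2 kb of dpr11 did (p = 0.0392) and the 58.1 kb of dpr12 did not (p = 0.0567). Most genes could not reach it, since the median window over all genes is 4.17 kb. By the exact binomial test dpr8 had 0 summits against 8.51 expected (adjusted p = 0.0533), dpr21 had 0 against 7.58 (adjusted p = 0.0825) and dpr6 had 1 against 9.99 (adjusted p = 0.0995). In replicate 1, with a background of 0.115%, dpr6 (0 summits, adjusted p = 0.0176) and dpr8 (0 summits, adjusted p = 0.0488) were called beside DIP-lambda by the same exact test. In replicate 2 DIP-lambda was the only member called, with a background of 0.0717%.

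The pooled list, with 30000 regions, gives the test more to work with. It held 50 summits in the windows of 9 members, against 369 expected, a ratio of 0.136. The 9 members with a region were 28.1% of the 32, against 42.2% of all genes, and among windows of at least 10 kb they were 6 of 25 (24%), against 76.9%. The summed density was 0.0304 summits per kb in members, 0.234 over all genes and 0.271 over genes with long windows. In this list 14 of the 32 members (43.8%) were called sparser by the exact binomial test, against a background of 1.28% of all genes and 7.7% of genes with windows of at least 10 kb, and no member was called denser (background 3.46%). Of the 14, 12 held no region at all. These 12 were dpr1, dpr2, dpr3, dpr11, dpr12, dpr13, dpr21, DIP-beta, DIP-epsilon, DIP-theta, DIP-kappa and DIP-lambda, with adjusted p from 0.0225 at dpr13 to 4.61e-34 at DIP-lambda. The other 2 were dpr6, with 4 regions against 37.4 expected (exact binomial test, adjusted p = 3.24e-09), and dpr8, with 8 against 31.9 (adjusted p = 7e-05).

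The whole replicate lists were tested in the same way, a comparison added after the data had been seen. Replicate 1 held 29 summits in member windows (ratio 0.0786) and called 14 members sparser, against a background of 1.6% of all genes and 9.59% of genes with long windows. Replicate 2 held 92 summits (ratio 0.249) and called 8, against 0.717% and 4.3%. Neither list called a member denser, where 4.1% of all genes were called denser in replicate 1 and 2.63% in replicate 2. The 8 members called sparser in the pooled list and in both whole replicate lists were dpr6, dpr8, dpr11, dpr12, dpr21, DIP-epsilon, DIP-theta and DIP-lambda. Over all 13945 protein-coding genes, 97 were called sparser in these 3 lists. Members with no summit in the whole list numbered 23 of 32 in replicate 1, against 51.1% of all genes, and 13 in replicate 2, against 56.7%. Among windows of at least 10 kb, 20 of 25 members were empty in replicate 1, against 23.1% of such genes, and 9 of 25 in replicate 2, against 18.2%. Since the pooled list derives from both replicates, it is not an independent test.

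DIP-alpha and dpr10, a pair of binding partners, were the exceptions among long members in the pooled list. DIP-alpha held 17 pooled regions where 14.9 were expected, and dpr10 held 12 where 9.13 were expected. Neither count was called (exact binomial test, adjusted p = 1 for both genes). With the 8 regions of dpr8 these genes held 37 of the 50 pooled regions of the families (74%). The replicates differed at dpr10, where the whole replicate 1 list held 3 regions and the whole replicate 2 list 15. In DIP-alpha these lists held 13 and 20. The IDR list held 0 summits in dpr10. The third gene of this partner group, dpr6, lies beside dpr10 on arm 3L and held 4 regions in a window of 167 kb, or 0.024 per kb. In DIP-alpha the regions ran through the gene body from 7052 to 52104 bp after the outermost start, and in dpr10 from −65 to 20332 bp.

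The other partner groups were nearly empty. DIP-gamma, which marks a subset of medulla neurons that receive R7 photoreceptor input, held 2 pooled regions where 10.6 were expected (exact binomial test, adjusted p = 0.0621), at ranks 13019 and 13726 and 35374 and 33686 bp inside the gene. Its partners dpr11, dpr15, dpr16 and dpr17 held 0 pooled regions each, where 14.9, 4.89, 4.76 and 4.16 were expected, and of these dpr11 was called sparser (exact binomial test, adjusted p = 6.02e-05). DIP-delta and its partner dpr12 held 0 pooled regions each, against 4.55 and 13 expected, with dpr12 called sparser (exact binomial test, adjusted p = 0.000307).

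The remaining members are accounted for as follows. Besides those named, dpr4, dpr5, dpr7, dpr9, dpr18, DIP-zeta and DIP-iota had no summit in the IDR list, in the top regions of either replicate or in the pooled list. Their windows ranged from 6.57 kb in DIP-iota to 24.3 kb in dpr9, with 1.47 to 5.45 pooled summits expected, and none was called. The whole replicate lists held weak regions in some members that the pooled list left empty: dpr18 had 2 in replicate 1, the strongest at rank 17721, and dpr1 had 4 in replicate 2, the strongest at rank 10210. In all, 26 members had no IDR summit, and 23 had no pooled summit, where 57.8% of all genes and 23.1% of genes with long windows had no pooled summit. Among the top regions, 23 members had no summit in either replicate, a count whose share over all genes was not computed.

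Introns, which make up 88.6% of the member windows, accounted for most of the missing summits. They held 3 IDR summits in 1457 kb where 87.2 were expected at the genome's density, or 0.00206 summits per kb. Member promoters held 3 summits in 38.7 kb where 2.32 were expected at the same genome density, or 0.0775 per kb. That expectation is not a promoter rate, since promoters held 0.209 summits per kb over genes with long windows and 0.151 over all protein-coding genes. The observed density at member promoters was below that of both sets, but it rests on 3 summits and the difference was not tested. The promoter density was 37.6 times the intron density in members (exact 95% interval 5.04 to 281), against 2.83 times (2.64 to 3.04) over genes with long windows and 2.05 times (1.95 to 2.15) over all protein-coding genes. The intron density itself was 0.0736 per kb over genes with long windows and 0.0737 over all genes. In replicate 1 the members' ratio was again 37.6, from the same counts, and in replicate 2 it was 30.1 (exact 95% interval 5.97 to 140), from 4 promoter and 5 intron summits. In the pooled list, with 5 promoter and 40 intron summits, it was 4.7 (1.45 to 11.9), against 2.32 (2.23 to 2.41) over genes with long windows, and these intervals overlap. The intervals treat summits as independent, which neighbouring summits are not.

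**Figure D3:**
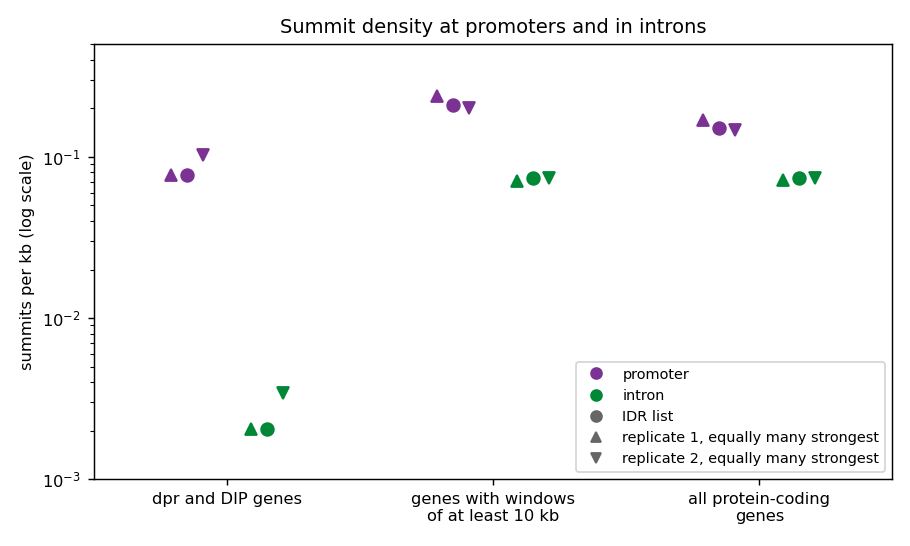
Summit density (y axis, summits per kb, log scale) at promoters (purple) and in introns (green) of the dpr and DIP genes, of genes with windows of at least 10 kb and of all protein-coding genes, in the IDR list (circles) and the top regions of replicate 1 (upward triangles) and replicate 2 (downward triangles). Member introns lie at 0.00206 to 0.00343 per kb, while the introns of the other sets lie between 0.0709 and 0.0743.

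Few member promoters held a region. A promoter summit was present in 3 of 32 members in the IDR list (9.38%), against 16.2% of all genes and 30.3% of genes with long windows. Replicate 1 marked 3 members, against 17.4% of all genes and 33.1% of genes with long windows, and replicate 2 marked 4 (12.5%), against 16.2% and 30.5%. In the pooled list 5 members (15.6%) had one, against 31.5% of all genes and 60.3% of genes with long windows. Of the 38 separate start regions of the 32 genes, 3 held an IDR summit, a share that was not computed over all genes. The GC content within 500 bp of the outermost start had a median of 42.8% in members and 42.4% over all genes.

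By share, promoters and introns held the same part of the 7 summits, 42.9% each (exact 95% interval 9.9 to 81.6), and the upstream stretch held 14.3%. Over all protein-coding genes promoters held 31.3%, introns 51.2% and the upstream stretch 15.5%, and over genes with long windows promoters held 17.8% and introns 75.1%; all of these promoter and intron shares lie within the members' interval. No member summit lay in a coding exon or an untranslated region in the IDR list; over all protein-coding genes, too, coding exons were almost free of summits, with 0.131% of the IDR summits in gene windows. Of the 7 summits, 6 lay before the first coding base of the gene, a share that was not computed over all genes. Those of dpr14, dpr19, dpr20 and DIP-eta lay upstream of the gene and so precede it by position. Of the 3 intronic ones 2 did, both in DIP-alpha, so they come from 1 gene. Introns before the first coding base made up 29.7% of member intron length. Promoter summits had a median percentile of 43.5 and intron summits one of 33 in the IDR list, a difference of 10.5, but with 3 summits in each class it was 2.72 in replicate 1 and −1.54 in replicate 2, where 4 and 5 summits entered, so the order is not settled.

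The regions outside the IDR list were weak. There were 43 pooled regions in member windows beyond the 7, with ranks from 8142 and a median rank of 21351 of 30000, and 37 of the 43 lay in introns and 2 at promoters, those of dpr10 and dpr8. A region of the whole replicate 1 list overlapped 22 of them (51.2%), against 75.6% of all such pooled regions, and one of the whole replicate 2 list overlapped 37 (86%), against 84.1%. Of the 43, 20 had a region in both replicates (46.5%, against 63.6% of all such pooled regions), and 4 had one in neither (9.3%, against 3.89%).

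The sequence around the members was compared with the members themselves, since a gene can be empty because its neighbourhood is. Over the 100 kb on each side of every window, 292 IDR summits lay in 6400 kb, where members that neighbour each other count shared stretches again. The density was 0.00426 per kb in the windows and 0.0456 in the flanks in the IDR list, and 0.0304 and 0.169 in the pooled list. In the IDR list the flanks were denser than the window at 26 of 32 members (81.2%, against 73.3% of all genes), sparser at 3 (dpr14, dpr19 and DIP-eta) and without summits at 3 (dpr7, dpr21 and DIP-lambda). In the pooled list the flanks were denser at 26 (81.2%, against 69% of all genes), with dpr10, dpr14, dpr19 and DIP-eta the other way. Among windows of at least 10 kb they were denser at 22 of 25 members in the IDR list (88%, against 54% of such genes) and at 21 in the pooled list (84%, against 49.5%). A window without summits, as 26 members have in the IDR list, is exceeded by any summit in its flanks, so these counts largely restate the empty windows. The contrast was steep at dpr16, with 0 pooled regions in its window and 100 in its flanks, and at dpr3, with 0 IDR summits in its window and 27 in its flanks. At dpr2 an IDR summit lay 1.26 kb beyond an otherwise empty window of 49.1 kb. The nearest IDR summit outside a window was at a median distance of 19.8 kb.

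**Figure D4:**
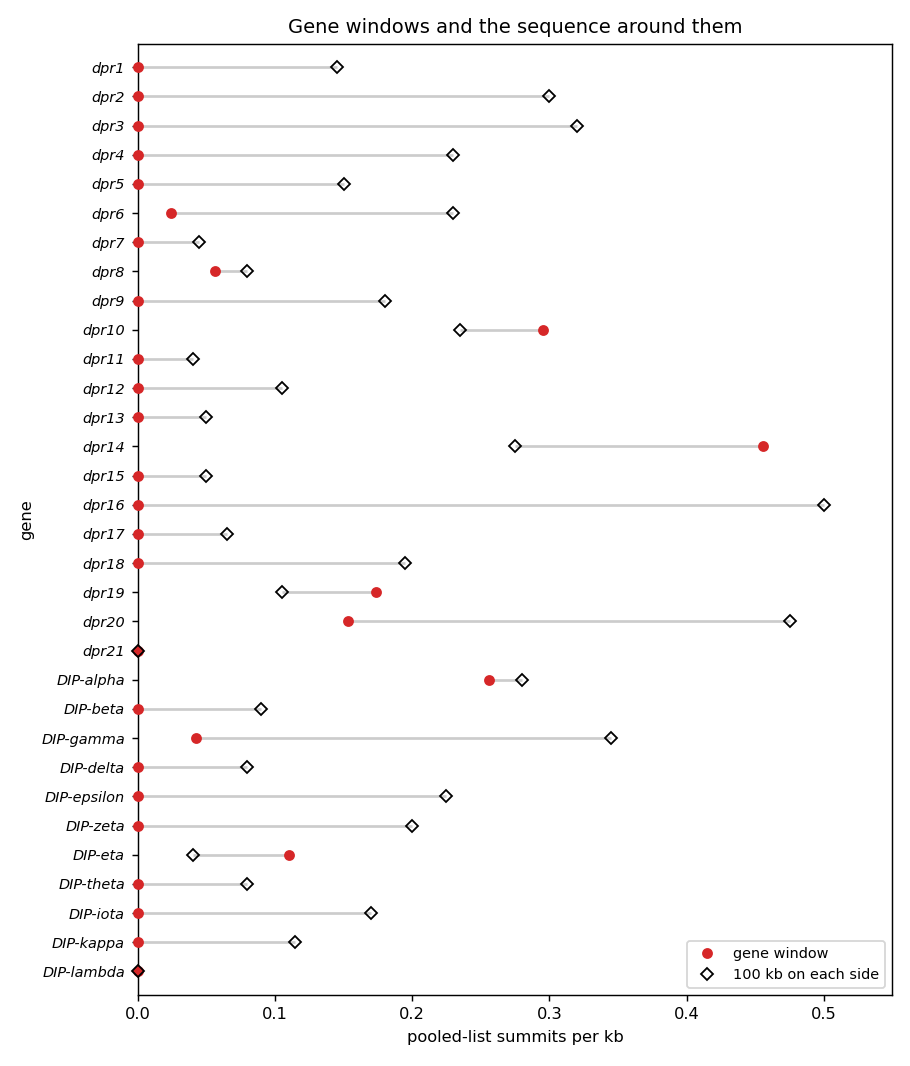
Pooled-list summits per kb (x axis) in the window of each of the 32 members (red circles) and in the 100 kb on each side of it (open diamonds). The diamond lies to the right at 26 members, and dpr21 and DIP-lambda have 0 in both places.

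Both members without pooled regions in their flanks lie near the base of arm 2R. In the first 5 Mb of that arm, which holds 34 protein-coding genes, the IDR list had 0 regions where 299 were expected, the pooled list 16 where 1121 were expected, the whole replicate 1 list 0 and the whole replicate 2 list 47. The low counts of DIP-lambda and dpr21 and the low counts of this stretch cannot be told apart. In DIP-lambda 32.2% of the window is marked as repeats in the assembly, and in dpr21 27.4%, against a median of 16.9% over members and 20.1% of the genome. Members elsewhere had similar or higher shares, with 37.4% in dpr7, 31.4% in dpr2 and 30% in dpr3. The part of repeats in the result was not tested. The other 30 members still had 7 IDR summits where 68 were expected, a ratio of 0.103, and 50 pooled regions where 255 were expected, a ratio of 0.196, with 12 of them called sparser in the pooled list by the exact binomial test.

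Other families of neuronal surface proteins were counted in the same way, with counts only. The 14 beat genes, which encode immunoglobulin proteins of motor axon guidance, held 4 IDR summits where 33.1 were expected (ratio 0.121), of which beat-Ib held 2 and beat-IIa and beat-IIIc 1 each. The 8 side genes, which encode binding partners of the Beat proteins, held 5 where 25.9 were expected (ratio 0.193), 2 of them in side. Neither family had a promoter summit. A list of 32 other recognition and guidance genes held 109 IDR summits where 137 were expected (ratio 0.797). They lay in 22 of its genes, with promoter summits in 11, and the densest were Ama, fra and Fas3. Of the 109 summits, kirre alone held 38, where 23.7 were expected. The list was mixed, since 12 of its genes held more than expected, while Con held 0 against 8.64 and Lar 1 against 8.83. In the pooled list 7 beat genes, 4 side genes and 6 of the other list were called sparser, against 14 of the 32 dpr and DIP genes, and 8 of the other list were called denser, against 0 dpr and DIP genes. Median IDR density was 0 in dpr and DIP genes, 0 in beat genes, 0.00507 in side genes and 0.0302 summits per kb in the other list. The difference between these lists was not tested.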

How the data were processed

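The deposited region lists on assembly dm6 were used, 1 for each of the 2 replicates, 1 pooled and 1 IDR list. Per the deposited text files, the authors derived the first 3 from alignments and a control file and the IDR list from those. Which aligner, peak caller and IDR threshold they used is not given in the sources used. The signal values are as deposited, on an unstated scale. Deposited −log10 q-values are tied at a maximum and were not used. Summit positions come from the authors' summit offset.

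Genes came from Ensembl release 115 and sequence from the RefSeq assembly of the same release of the genome; coordinates count from 1. Summits in a gene window were tested against its share of 133647856 ungapped bp on 6 arms and chromosomes. Classes were assigned in the order promoter, exon (5′ untranslated, coding, 3′ untranslated, noncoding), intron, upstream. Intervals are exact at 95% and cover counting error of regions. A region overlapped another at 1 bp or more. Python 3.11.15, numpy 2.4.6, scipy 1.17.1 and pandas 2.3.3 were used. The binomial test was tried on simulated counts per gene, drawn independently of each other. The counting of summits in windows was not tested in this way. Members and lists were chosen with earlier results of these data known. Every member was accounted for. Of comparison families the 3 densest were named, and in the list of other recognition genes also kirre, Con and Lar. Alternatives were other window and promoter sizes, single replicates, the pooled list, the strongest 4002 IDR regions, overlap in place of summits, length without coding sequence and long genes only.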

Additional observations from a re-analysis of the deposited data

How the results depend on the processing

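No paired analysis was possible because the labels give 1 group. Of 88 alternative values, 53 stayed close to the reported one, 33 moved and 2 changed sign; no member was called denser under any setting run for that call, and the members' median density was 0 under the 8 settings run for it (upstream lengths, single replicates, strongest IDR regions, pooled list, overlap, and without the first 5 Mb of arm 2R). With the strongest 4002 IDR regions, 3 members held 3 summits, 1 at a promoter, with promoter and intron shares of 33.3%, a median percentile of 62.1 and a promoter minus intron difference of −32.8. With the pooled list there were 50 summits, 14 members called sparser, 5 with a promoter summit, promoter and intron shares of 10% and 80% and a difference of 43.2. With 500 bp upstream both shares were 50% and the median percentile 38.3. With 5000 bp both shares were 33.3% and 2 members, DIP-lambda and dpr8, were called sparser, among 17 of 13945 genes called. Without coding length 4 members were called sparser (DIP-lambda, dpr6, dpr8 and dpr21), among 22 of 13945 genes called. Over long genes only the same 4 were called, among 27 of 2325. The whole replicate lists gave 14 and 8 members, among 223 and 100 of 13945 genes called. A promoter limit of 250 bp gave a share of 28.6% and a difference of 0.587, and 1000 bp gave 57.1% and 28.5. Leaving out summits near a start of another gene left 4 summits and 1 member with a promoter summit. Across the 2 replicates, each left out in turn, members with a summit ranged from 5 to 9, summits from 7 to 10, members called sparser from 1 to 3, members with a promoter summit from 3 to 4, the promoter share from 40% to 42.9%, the intron share from 42.9% to 50%, the median percentile from 32.7 to 39.8 and the promoter minus intron difference from −1.54 to 2.72. The causes were not tested. Depth is unknown, the lists end at 30000 regions, and 7 summits fix neither shares nor strength.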
